A study of Arabidopsis thaliana with 12 samples.

Results

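The insertion of mitochondrial DNA in chromosome 2 of Arabidopsis thaliana was followed here through a range of gene identifiers. The range was taken as every gene of the deposited all-read table with an identifier from AT2G07660 to AT2G07830. The rule gave 62 of the 22337 genes of that table, and 33 of them also had a row in the table of tagged reads. A gene without a row there was given 0 tagged reads. All 62 genes matched a gene of RefSeq's table of the TAIR10.1 assembly, in which all are protein coding. That table names 4 of them, namely ABCI5 (AT2G07771), ABCI4 (AT2G07681), ABCC13 (AT2G07680) and MCM5 (AT2G07690), and the other 58 are given by their identifier. ABCC13 is an ABC transporter and MCM5 a subunit of the replicative DNA helicase. In the assembly they stand as genes 61 and 62 of the 62 in chromosome order, at the far end of the row. The 62 are called insertion genes below by identifier alone. That does not show that each of them, ABCC13 and MCM5 included, lies in the inserted DNA.

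The study read RNA of 12-day-old Col-0 seedlings by NAD tagSeq on a Nanopore direct RNA instrument. In this assay the enzyme ADPRC exchanges the nicotinamide of an NAD+ cap for a handle to which a synthetic tag RNA is joined, and reads that carry the tag count as tagged. Enriched libraries came from RNA in which tagged molecules had been captured, and reactions without ADPRC measured the background. The groups were poly(A) RNA enriched after the reaction with ADPRC (3 libraries) or without it (3 libraries), unenriched poly(A) RNA with ADPRC (3 libraries) and without it (1 library), and enriched total RNA with and without ADPRC (1 library each). All seedlings were of the same accession and grown under standard conditions without a special treatment.

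As background, pieces of organelle DNA enter plant nuclear chromosomes over evolution, and the large piece near the centromere of Arabidopsis chromosome 2 is nearly identical to the mitochondrial genome. A read from either place can therefore not be assigned with certainty to the chromosome 2 gene or to its mitochondrial copy, and each value below is what the authors' processing gave to the chromosome 2 identifier. Transcripts of plant mitochondria mostly lack stable poly(A) tails, and a tail often marks them for decay. An NAD+ cap is a metabolite at the 5' end of an RNA, where nuclear mRNA usually has a methylguanosine cap.

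Depth, counted as the reads that the all-read table lists for a library, differed between the libraries. Enriched poly(A) libraries held 1175516 to 1233999 reads with ADPRC, against 390009 to 948433 without it. Unenriched poly(A) libraries held 378322 to 619122 reads with ADPRC and 434742 without it. The total RNA libraries were shallow, at 6479 reads with ADPRC and 1237 without it. The tag was on 14.1% to 23.9% of all reads in enriched poly(A) libraries with ADPRC, against 0.132% to 0.224% in those without it. In unenriched libraries with ADPRC it was on 0.546% to 0.743%. Levels are given as CPM, which scales the reads of a gene to a fixed total of library reads. The files name these values TPM, but they carry no correction for transcript length and are compared only between libraries.

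The 62 genes were weakly covered. Over the 12 libraries they had 1689 reads, of which 288 were tagged. A single read in all 12 libraries was the whole evidence for 10 genes, and 38 genes had fewer than 10 reads. The 6 genes with the most reads held 1089 reads, or 64.5%. They were AT2G07671 with 411, AT2G07718 with 214, AT2G07774 with 211, AT2G07777 with 94, AT2G07698 with 84 and AT2G07695 with 75. For this reason the reads of all 62 genes were first pooled within each library, which describes them as a set dominated by a few genes.

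The share of tagged reads among the pooled reads of the insertion genes was above that of all other genes in each library made with both the enzyme and the enrichment. The 3 enriched poly(A) libraries with ADPRC held 149 tagged of 364 reads, 70 of 167 and 64 of 172. Those are shares of 40.9% (95% Wilson interval 36.0 to 46.1), 41.9% (34.7 to 49.5) and 37.2% (30.3 to 44.6), with a mean of 40.0% ± 2.48 (SD, n = 3). All other genes of the same libraries had 23.9%, 20.9% and 14.1%, with a mean of 19.6% ± 5.00. The share of the insertion genes was thus 1.71, 2.01 and 2.63 times that of all other genes in replicates 1, 2 and 3. All 3 libraries showed the same direction and the ranges did not overlap, but the set was chosen with results known and the difference of the pooled shares was not tested.

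Outside the enriched libraries with ADPRC, few poly(A) reads of these genes were tagged. Enriched poly(A) libraries without ADPRC held 1 tagged of 68 reads, 1 of 74 and 0 of 94, or 1.47%, 1.35% and 0 percent. Unenriched libraries with ADPRC held 0 tagged of 165 reads, 2 of 214 and 0 of 199, and the unenriched library without ADPRC held 0 of 161. Where no tagged read was seen, 3 reads would be 3.19% of the reads in the enriched library, 1.82% and 1.51% in the unenriched libraries with ADPRC and 1.86% in that without it. Over the enriched libraries without ADPRC the insertion genes had 0.847% (interval 0.233 to 3.04), against 0.202% in all other genes. Over the unenriched libraries with ADPRC they had 0.346% (0.0949 to 1.25), against 0.634% in all other genes. Each of these 2 shares of the insertion genes rests on 2 tagged reads. Intervals and the limits from 3 reads cover counting error only.

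**Figure D1:**
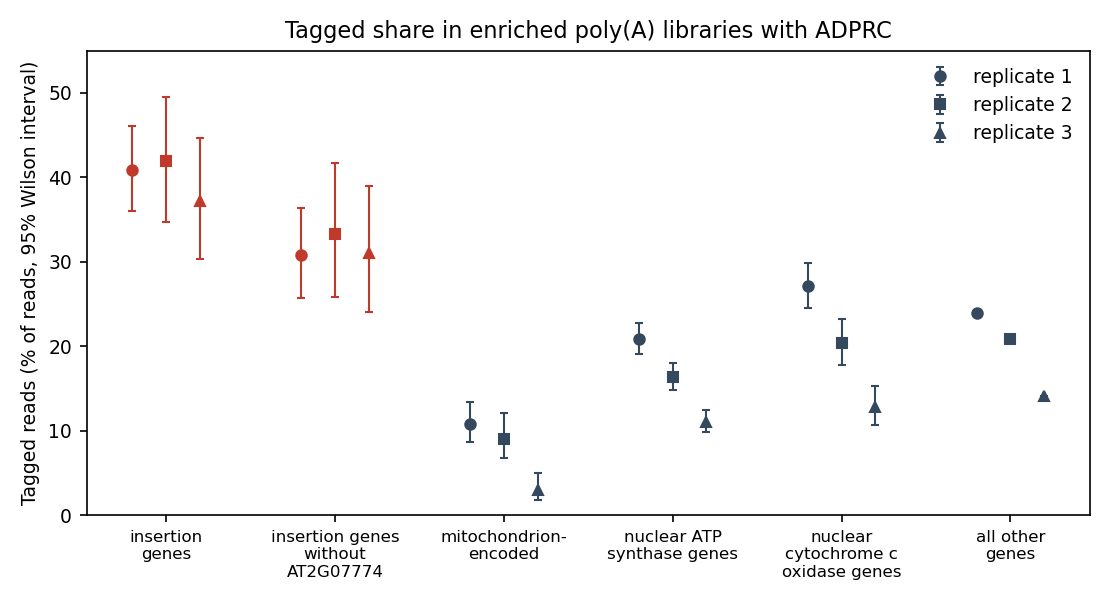
Share of tagged reads, in percent of the reads of each gene set, in the 3 enriched poly(A) libraries with ADPRC. Points are libraries and bars are 95% Wilson intervals. The insertion genes sat at 37.2% to 41.9%, and at 30.8% to 33.3% without AT2G07774, above all other genes at 14.1% to 23.9%.

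AT2G07774 held a large part of the tagged reads. It gave 106 of the 283 tagged reads of the insertion genes in the enriched libraries with ADPRC, which is 37.5%, and 140 of their 703 reads, which is 19.9%. Without it the set still had shares of 30.8%, 33.3% and 31.0%, each above the share of all other genes in its library. Without ABCC13 and MCM5, the mean share was 41.3% ± 1.72 (SD, n = 3).

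The sets used for comparison lay lower. The 91 mitochondrion-encoded genes had shares of 10.9%, 9.09% and 3.04% in replicates 1, 2 and 3 of the enriched libraries with ADPRC. That pool is made up mostly of 3 genes with a rare tag: ATMG00020 had 5 tagged of 615 reads, ATMG00030 0 of 385 and ATMG01390 2 of 225. The remaining mitochondrion-encoded genes had 35.6% (interval 29.2 to 42.5), 34.2% (26.2 to 43.2) and 15.4% (9.39 to 24.2). Without these 3 genes the mitochondrial set was thus above all other genes as well in replicates 1 and 2. In replicate 3 its interval held the 14.1% of all other genes. Among the 16 mitochondrion-encoded genes with 10 or more reads there, the median share was 19.1%, the highest 52.8%, and 3 reached 50%. Nuclear genes of mitochondrial ATP synthase (9 genes) had a mean share of 16.1% ± 4.89, those of cytochrome c oxidase (7 genes) 20.1% ± 7.15, and the 53 chromosome 2 genes with identifiers on either side of the range 7.36% ± 2.14 (SD, n = 3 each).

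Identifier order is not chromosome order in this stretch. In the assembly's order, 18 further genes of the all-read table lie between the first and the last member when ABCC13 and MCM5 are left out, which makes 78 genes by position. These 18 had 82 reads in the enriched libraries with ADPRC, of which 49 were tagged. Their shares were 66.7%, 63.3% and 48% in replicates 1, 2 and 3. Some of them overlap members: AT2G07636 overlaps AT2G07692, AT2G07658 overlaps AT2G07787 and AT2G07599 overlaps AT2G07696 and AT2G07785. In all, 8 members overlap another listed gene, so reads between such genes are uncertain. Taken by position, the mean share was 43.3% ± 2.74 (SD, n = 3).

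Single genes of the insertion differed widely in how often they carried the tag. In the enriched libraries with ADPRC, 55 of the 62 genes had a read, 33 had a tagged read and 9 had a tagged read in all 3 libraries. The 14 genes with 3 or more tagged reads held 260 of the 283. Among genes with 10 or more reads there, the highest shares over the 3 libraries were those of AT2G07692, with 13 tagged of 17 reads (76.5%, interval 52.7 to 90.4), and AT2G07774, with 106 of 140 (75.7%, 68.0 to 82.1). AT2G07725 followed with 16 of 22 (72.7%, 51.8 to 86.8). AT2G07715 had 6 of 8 and AT2G07722 had 3 of 4, too few to place them. In AT2G07715 all 6 tagged reads came from replicate 1.

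The next genes by share were tagged on about every other read or more often. AT2G07815 had 23 tagged of 35 reads (65.7%, interval 49.2 to 79.2) and AT2G07695 had 27 of 47 (57.4%, 43.3 to 70.5). AT2G07787 had 8 of 14, AT2G07806 9 of 18 and AT2G07775 3 of 6. AT2G07719 had 18 of 37 (48.6%, 33.4 to 64.1). The intervals of these genes overlap one another and those of AT2G07692 and AT2G07725, so their order is not settled and they are not a group apart.

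The 2 genes with the most reads of all had lower shares than these. AT2G07718 had 16 tagged of 64 reads (25%, interval 16.0 to 36.8), AT2G07777 4 of 34 (11.8%, 4.67 to 26.6) and AT2G07671 8 of 86 (9.30%, 4.79 to 17.3). AT2G07708 had 2 of 17 and AT2G07698 1 of 21 (4.76%, 0.846 to 22.7). The intervals of AT2G07774 and of AT2G07671 are far apart, although both genes belong to the same range.

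**Figure D2:**
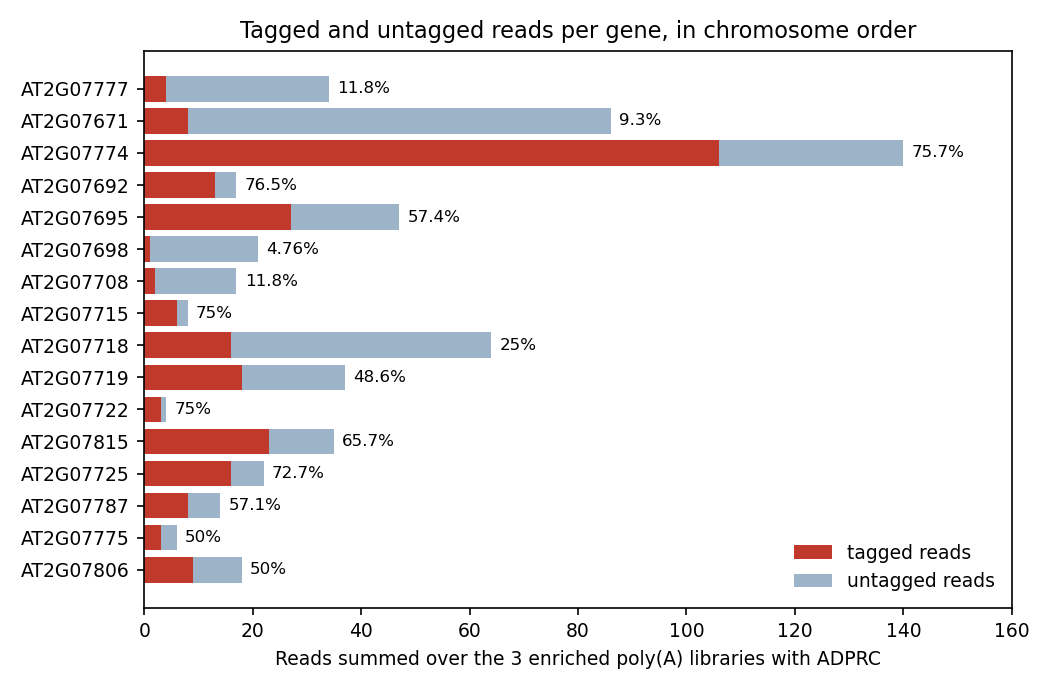
Tagged (red) and untagged (grey-blue) reads of 16 insertion genes, summed over the 3 enriched poly(A) libraries with ADPRC, in the order of the genes along the chromosome with the first at the top. Genes shown have 10 or more reads there or 3 or more tagged reads, and the tagged percent is written at each bar. AT2G07774 has 106 tagged of 140 reads, against 8 of 86 in AT2G07671.

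How far these shares stand from the rest of the transcriptome depends on how genes with enough reads are picked. Among the 15218 genes with 10 or more reads over the 3 enriched libraries with ADPRC, the median share was 10.7% (quartiles 4.00% and 20%), and 107 genes (0.703%) were at 50% or more. The 13 insertion genes that met the same minimum had a median of 50%, from 4.76% to 76.5%, and 7 of them were at 50% or more. Tagged reads count toward that minimum, so it favours genes rich in the tag. With the minimum set in the unenriched libraries with ADPRC instead, 11 insertion genes had 10 or more reads, and their median share after enrichment was 11.8%, against 11.7% over the 10708 genes chosen in the same way. Among those 11 genes, 3 were at 50% or more, namely AT2G07774, AT2G07695 and AT2G07815, compared with 39 of the 10708 (0.364%). Of the 11 genes, 7 lay above the median of the 10708, and the other 4 below it.

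The tag of each gene was then set against that of its whole library. For this test the difference between log2 tagged and log2 untagged reads, each scaled to the total of its kind, was tested against 0 with limma over 8880 genes at a mean of 10 or more CPM. Of the 62 genes, 5 reached that level. Over all genes, 7.21% were called higher and 41.1% lower, 48.3% in all, and the median gene lay at -0.67 on the log2 scale. Of the 5 insertion genes 3 were higher and 1 lower, and their median was 1.40. AT2G07774, AT2G07695 and AT2G07719 reached the level of 10 CPM only with their tagged reads, since their untagged reads averaged 9.44, 5.54 and 5.26 CPM, so the count of higher genes cannot stand as support. The test was therefore repeated, after the data had been seen, on the 8337 genes at a mean of 10 or more CPM in the unenriched libraries with ADPRC, a level that the tested reads do not enter. Of these genes 7.17% were higher and 43.4% lower, 50.6% in all, with a median of -0.71. Of the 7 insertion genes among them, AT2G07774 and AT2G07695 were higher and AT2G07671 and AT2G07698 lower, with a median of -0.59 over the 7.

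AT2G07774 had 61 tagged of 78 reads, 26 of 35 and 19 of 27 in the 3 enriched libraries with ADPRC. Those are 78.2%, 74.3% and 70.4%, so every library was far above its overall share. Among the genes chosen by their unenriched level, its log2 difference from the library was 3.19 (SE 0.31, limma adjusted p = 1.71e-05), and by its tagged percent it ranked 1 of the 8337.

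AT2G07695 had 9 tagged of 18 reads, 7 of 13 and 11 of 16, or 50%, 53.8% and 68.8%. Among the same genes its log2 difference from the library was 1.98 (SE 0.43, limma adjusted p = 0.00299), and it ranked 6 of the 8337. AT2G07719 had 9 of 17, 6 of 12 and 3 of 8. It did not reach 10 CPM in the unenriched libraries, so its log2 difference of 1.40 (SE 0.38) is given with no test.

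AT2G07718 had 7 tagged of 29 reads, 5 of 18 and 4 of 17, or 24.1%, 27.8% and 23.5%, at a log2 difference of 0.39 (SE 0.38, limma adjusted p = 0.406 among the 8337 genes), which did not pass. AT2G07671 had 7 of 49, 1 of 14 and 0 of 23, and was lower than its libraries by the test, at -1.56 (SE 0.43, limma adjusted p = 0.0104 among the 8337 genes and 0.0123 among the 8880). By its tagged percent it ranked 5049 of the 8337, of which 43.4% were called lower, so the call does not set it apart from them. Without replicate 3, the library with no tagged read of the gene, the value among genes at 10 CPM in the remaining enriched libraries was -0.99 and the limma adjusted p 0.100.

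Tagged reads of single genes were also compared with the background reactions. For enriched RNA with and without ADPRC, genes needed a value above 0 in at least 3 of the 6 libraries, and 9 insertion genes met this: AT2G07692, AT2G07695, AT2G07718, AT2G07719, AT2G07725, AT2G07774, AT2G07787, AT2G07806 and AT2G07815. All 9 were higher with ADPRC, in a comparison in which 96.7% of the 7634 genes tested were called higher. Each of these 9 was tagged in every enriched library with the enzyme, so they entered the test through the group in which they are high, and their count is given as a description. The tagged level of AT2G07774 was 51.9, 21.3 and 15.4 CPM with ADPRC, against 0, 1.92 and 0 CPM without it.

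The log2 fold change of that tagged level was 4.28 (SE 0.63). It takes each library's total of all reads as given, and with the size factors of DESeq2, estimated from the tagged reads themselves, it was -0.71. By DESeq2 and by edgeR with TMM, 0 of the 9 genes were called. Between enriched and unenriched RNA with ADPRC, the same 9 genes were tested and all 9 were higher, where 95.7% of the 7623 genes tested were higher. These 2 comparisons share the enriched libraries with ADPRC. In unenriched RNA with ADPRC the 62 genes had 2 tagged reads in all, 1 of AT2G07718 and 1 of AT2G07774, both in replicate 2.

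The pooled level of the insertion genes among all reads was lower after enrichment. It was 310, 137 and 139 CPM in enriched poly(A) RNA with ADPRC (195 ± 99.1, SD, n = 3), against 436, 346 and 356 CPM in unenriched poly(A) RNA with ADPRC (379 ± 49.6). The ranges did not overlap. Enriched RNA without ADPRC had 174, 142 and 99.1 CPM (139 ± 37.7), within or below the range of the enriched RNA with ADPRC, and the unenriched library without ADPRC had 370 CPM. So the pooled level was lower after enrichment with the enzyme, and also without it, where a single unenriched library was read. By their labels these groups differ in the capture of tagged RNA and in ADPRC, and not in the accession, age or treatment of the seedlings. No label says whether they were made from the same RNA. The values compare libraries and are not read as a change of expression. All levels are those of whole seedlings, in which fewer expressing cells and less RNA per cell cannot be told apart.

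Replicate 1 of the enriched RNA with ADPRC stood apart from the other two, with 364 insertion reads at a depth like theirs. It also had reads of 46 of the 62 genes, against 32 and 35 in replicates 2 and 3. Without it the mean pooled level was 138 CPM. Counting untagged reads only, the level was 183, 79.5 and 87.5 CPM in enriched RNA with ADPRC, against 378 ± 50.7 CPM in unenriched RNA with ADPRC (SD, n = 3). The pooled level of the mitochondrion-encoded genes was 450 ± 106 CPM in enriched RNA with ADPRC, 619 ± 56.9 CPM in enriched RNA without it and 907 ± 88.1 CPM in unenriched RNA with it. The 53 chromosome 2 genes on either side had 5162 ± 81.7, 7524 ± 447 and 12727 ± 340 CPM in the same order. A lower level after enrichment was thus not particular to the insertion genes. Nuclear genes of mitochondrial ATP synthase had 1659 ± 116, 1825 ± 108 and 1793 ± 77.3 CPM. Those of cytochrome c oxidase had 767 ± 146, 925 ± 24.1 and 835 ± 35.6 CPM.

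**Figure D3:**
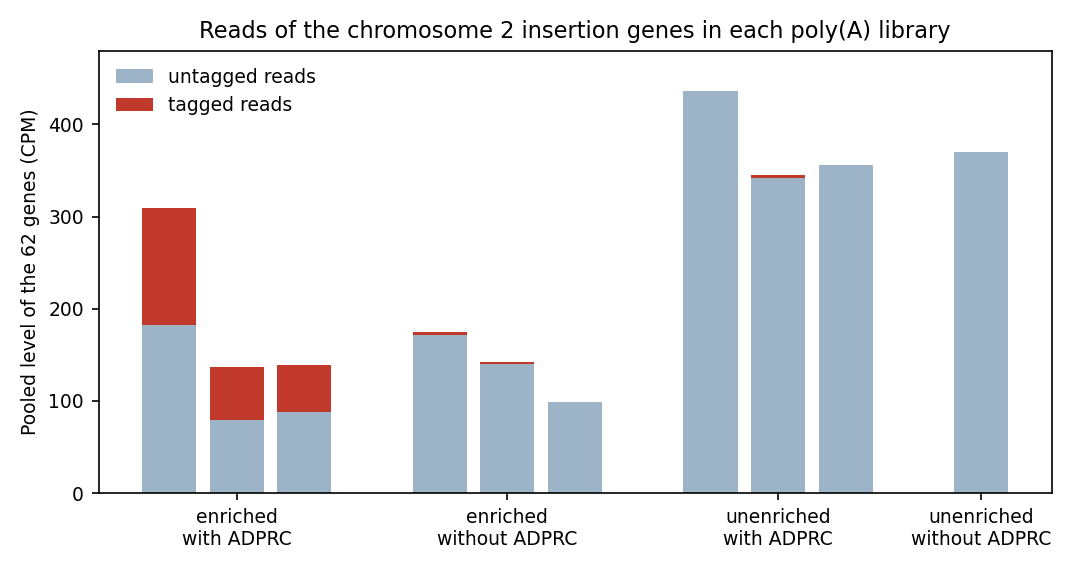
Pooled level of the 62 insertion genes among all reads, in CPM, split into untagged (grey-blue) and tagged (red) reads, with a bar for each poly(A) library. Enriched libraries reached 99.1 to 310 CPM and unenriched ones 346 to 436 CPM, and the tagged part is visible mainly in the enriched libraries with ADPRC.

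Of 38 insertion genes tested between enriched and unenriched poly(A) RNA with ADPRC, 3 fell after enrichment and 0 rose by limma. An unadjusted limma p under 0.05 was found for 9 of the 38, compared with 3861 of all 18831 genes tested. Over all 18831 genes tested, 1.96% fell and 2.99% rose, 4.95% together. The median log2 fold change was -0.32 in the 38 genes and 0.20 over all genes. The 2 genes with the most reads were among the 3 that fell.

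AT2G07671 had 41.7, 11.5 and 18.6 CPM in enriched RNA with ADPRC, against 153, 108 and 114 CPM in unenriched RNA with ADPRC. Every enriched library was below every unenriched one. The log2 fold change was -2.50 (SE 0.36, limma adjusted p = 0.00359). Enriched RNA without ADPRC had 46.2, 36.5 and 29.5 CPM and the unenriched library without it 156 CPM, the same pattern without the enzyme.

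AT2G07718 had 24.7, 14.7 and 13.8 CPM in enriched RNA with ADPRC, against 66.1, 72.7 and 57.2 CPM in unenriched RNA with ADPRC, again with no overlap. Its log2 fold change was -1.85 (SE 0.26, limma adjusted p = 0.00325). Without ADPRC it had 33.3, 9.60 and 10.5 CPM in enriched RNA and 46.0 CPM in the unenriched library. Together AT2G07671 and AT2G07718 made up 21.3% of the insertion reads in enriched RNA with ADPRC, against 50.3% in unenriched RNA with ADPRC.

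AT2G07739 was the remaining gene that fell, at 2.55, 2.46 and 0.810 CPM in enriched RNA with ADPRC, against 10.6, 9.69 and 10.7 CPM in unenriched RNA with ADPRC. Its log2 fold change was -1.92 (SE 0.50, limma adjusted p = 0.0495), at the edge of the threshold. The call rests on 7 reads in the enriched libraries and was lost without each library of the fit but replicate 1 of the enriched RNA, with adjusted p up to 0.112.

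AT2G07777 had 20.4, 4.92 and 3.24 CPM in enriched RNA with ADPRC, against 23.8, 24.2 and 23.2 CPM in unenriched RNA with ADPRC. The groups did not overlap, although replicate 1 of the enriched RNA came close, and the log2 fold change of -1.57 (SE 0.52, limma adjusted p = 0.109) did not pass. Without ADPRC this gene had 5.13, 9.60 and 9.49 CPM in enriched RNA and 13.8 CPM in the unenriched library. AT2G07698 had 7.66, 2.46 and 7.29 CPM in enriched RNA with ADPRC, against 44.9, 11.3 and 17.9 CPM in unenriched RNA with ADPRC, with no overlap. Its log2 fold change of -1.77 (SE 0.54, limma adjusted p = 0.0858) did not pass, but it was called lower in 8 of 14 alternatives, edgeR and DESeq2 among them, with adjusted p from 0.000732 to 0.230. It had 17.9, 11.5 and 5.27 CPM in enriched RNA without ADPRC and 25.3 CPM in the unenriched library without it.

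The 2 genes richest in tagged reads did not pass the test of the level. AT2G07774 had 66.4, 28.7 and 21.9 CPM in enriched RNA with ADPRC, against 21.1, 30.7 and 30.4 CPM in unenriched RNA with ADPRC, so the groups overlapped. Its log2 fold change was 0.35 (SE 0.36, limma adjusted p = 0.643). AT2G07695 had 15.3, 10.7 and 13.0 CPM against 21.1, 8.08 and 3.57 CPM in the same groups, at 0.49 (SE 0.52, limma adjusted p = 0.649). A value that misses the threshold does not show that the levels were equal.

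**Figure D4:**
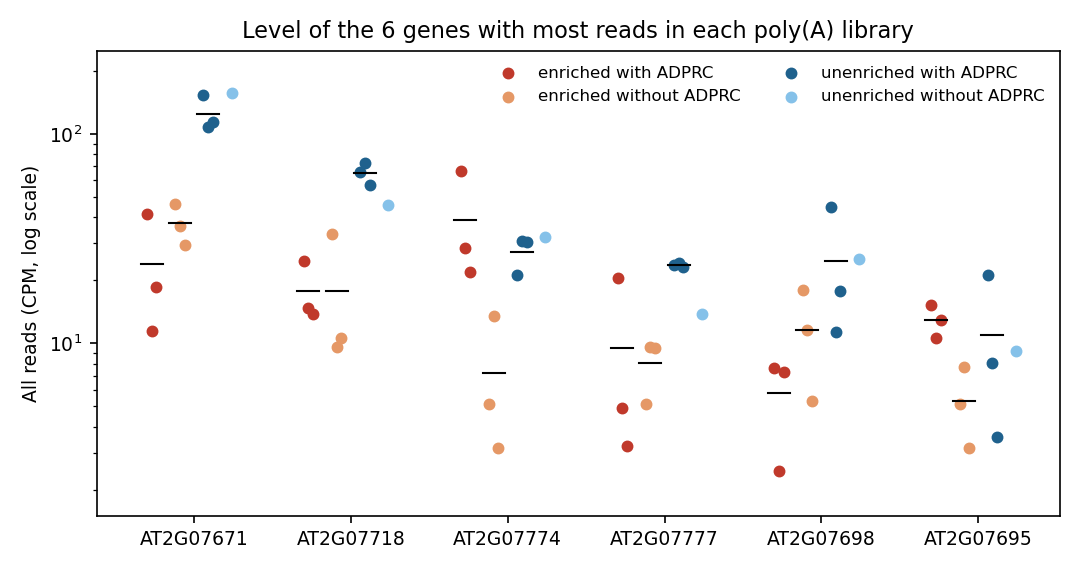
Level of the 6 insertion genes with the most reads among all reads, in CPM on a log axis, with a point for each poly(A) library and a line at the mean of groups of 3. AT2G07671 and AT2G07718 are lower in both enriched groups than in both unenriched groups, while AT2G07774 has 21.9 to 66.4 CPM in enriched RNA with ADPRC and 3.16 to 13.4 CPM in enriched RNA without it.

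Enriched poly(A) RNA with and without the enzyme was first compared among all reads by limma with no replicate block. None of the 31 insertion genes tested was called, where 0.115% of 19150 genes were called (0.0731% higher, 0.0418% lower). That fit leaves out the pairing of the samples given below. Of the 31 genes, 7 had an unadjusted p under 0.05, compared with 1422 of all 19150, and edgeR called 1. AT2G07774 had 66.4, 28.7 and 21.9 CPM with ADPRC, against 5.13, 13.4 and 3.16 CPM without it, with no overlap between the groups. Its log2 fold change was 2.33 (SE 0.51, limma adjusted p = 0.167). Replicate numbers paired these samples, and with the replicate as a block the limma adjusted p was 0.00658, so that the gene was called higher with ADPRC. Over all alternatives run for this value its adjusted p ranged from 3.00e-05 to 0.407, and the log2 fold change from 1.85 to 2.86.

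AT2G07695 had 15.3, 10.7 and 13.0 CPM with ADPRC, against 5.13, 7.68 and 3.16 CPM without it. Its groups did not overlap either, at a log2 fold change of 1.20 (SE 0.45, limma adjusted p = 0.591). For AT2G07725, with 9, 8 and 5 reads with ADPRC and 0, 1 and 0 reads without it, the value was 2.32 (SE 0.64, limma adjusted p = 0.369). The level of AT2G07671 was 41.7, 11.5 and 18.6 CPM with ADPRC, against 46.2, 36.5 and 29.5 CPM without it, at -0.79 (SE 0.39, limma adjusted p = 0.668).

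Whether enrichment changed these genes differently with and without the enzyme was tested as an interaction over the 4 poly(A) groups, a fit added after the data had been seen. It called 0 of 44 insertion genes and 0 of all 19871 genes by limma (0%), with 6 and 1393 at an unadjusted p under 0.05, and edgeR called 0 and 4. AT2G07774 had a difference of log2 changes of 2.44 (SE 0.72, limma adjusted p = 0.498). The single unenriched library without ADPRC limits this test, and the fit held no replicate block.

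The genes of low tag and low level fill the rest of the range. Of the 24 genes with 10 or more reads over the 12 libraries, 6 had no tagged read: AT2G07739 with 31 reads, MCM5 with 27, ABCC13 and AT2G07779 with 17 each, AT2G07707 with 14 and AT2G07667 with 10. AT2G07696 had 1 tagged of 19 reads, AT2G07706 1 of 17, AT2G07727 1 of 30 and AT2G07773 1 of 13. AT2G07708 had 2 tagged of 36. MCM5 and ABCC13, at the end of the row, had 9 reads each in the enriched libraries with ADPRC and none was tagged. With so few reads, 3 tagged reads could have gone unseen in each.

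In enriched total RNA, the library with ADPRC held 11 reads of the insertion genes, which is 1698 CPM (95% Wilson interval 948 to 3038), and the library without it held 0 (upper Wilson limit 3096 CPM, with 3 reads worth 2425 CPM). The mitochondrion-encoded genes had 12348 CPM in the library with ADPRC and 13743 CPM in that without it. Enriched poly(A) RNA with ADPRC had 137 to 310 CPM, below the interval of the total RNA library. A single read there is worth 154 CPM. The 11 reads fell on 9 genes, 8 of which had 1 read, and AT2G07671 had 3. Of the 11 reads 1 was tagged, from AT2G07671. Against enriched poly(A) RNA, the direction of each log2 fold change followed from whether the gene had a read in this library. The 9 tested genes with a read, worth 154 CPM against a pseudocount of 0.835 CPM, lay above 0. The 17 tested genes without a read lay below 0. The direction of the limma calls that follow therefore restates which genes had a read, and no change of level is read from them. By limma, with the lone library assumed to vary like the poly(A) libraries, 24 of 26 insertion genes were called, 9 higher and 15 lower, where 96.1% of all genes tested were called, 7.91% higher and 88.2% lower. By edgeR and DESeq2, 0 of the 26 genes were called, so these calls depend on the model.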

How the data were processed

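The authors deposited a table of all reads and a table of tagged reads (named NAD-RNA) with 1 value for each gene in each library. The values are called TPM, per the file headers. The deposited values behave as CPM: divided by what 1 read is worth, the 177709 all-read and 38774 tagged values above 0 all came out whole (100.0%, tolerance 0.01 reads). The denominator of both tables is the total of the reads that the all-read table lists for the library. Whole reads were recovered in this way. What 1 read is worth was taken from the all-read table in every library and used for the tagged reads as well. Tagged reads were fewest in enriched total RNA without ADPRC (2 reads) and unenriched poly(A) RNA without ADPRC (9 reads). The genome build, annotation, aligner, base caller, use of strand and rule for a tagged read were not given in the sources used here. A row that names no gene was left out.

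Tests used two-sided limma fits (limma 3.58.1 with a mean trend in eBayes, R 4.3.3) on log2(CPM + pseudocount), fitting the compared groups alone and testing genes above 0 in at least 3 of their libraries. The pseudocount was the median, over libraries, of the smallest value above 0, which came to 0.953 CPM for the comparison with and without ADPRC, 1.23 CPM for enriched against unenriched RNA, 0.835 CPM for total against poly(A) RNA and 1.70 CPM for the interaction. For the tagged share it was 3.93 on the CPM scale of tagged reads. Fold changes on this scale understate changes of low genes. A Benjamini-Hochberg adjusted p under 0.05 over all genes tested made a call. The count tests of edgeR 4.0.16 and DESeq2 1.42.0 were run on the recovered reads as alternatives, edgeR calling 51 genes with and without ADPRC and 1090 between enriched and unenriched RNA. Figures and intervals came from Python 3.11.15 with matplotlib 3.10.9 and scipy 1.17.1. The limma scripts were tested on simulated data.

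The members, the gene lists and the tests were chosen with earlier results of these data known. Every gene of the insertion with 10 or more reads over the 12 libraries is named, the 6 with the most reads are given in every library, genes with 3 or more tagged reads are named with them, and of the mitochondrion-encoded genes only the 3 with the most reads are named. Genes at other positions that overlap members were named after their values were seen. No label says whether replicates were grown separately, so a p-value here covers the variation among these libraries, part or all of which may be technical. Deviations from the group means of same-numbered libraries correlated at 0.235, 0.183 and 0.178 between enriched RNA with and without ADPRC (8896 genes), so these numbers pair the samples. Between enriched and unenriched RNA the correlations were near 0 and do not pair them.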

Additional observations from a re-analysis of the deposited data

How the results depend on the processing

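Alternatives were 4 times the pseudocount, edgeR with library totals or TMM, DESeq2, other filters on low values, centring, leaving out each library and a replicate block. Among all reads with and without ADPRC, 0 insertion genes were called as reported. The count was 1 (AT2G07774) by edgeR with library totals or with TMM, at a mean of 10 or more CPM and with the replicate block, and 0 to 1 without each library. For tagged reads 9 calls became 0 by edgeR with TMM and by DESeq2, 1 at a mean of 10 or more CPM, and 2 to 9 without each library, both against no ADPRC and against unenriched RNA. Centring, with 9 and 8 calls, turned them all lower, since it removes the difference of the whole libraries. In all reads of enriched against unenriched RNA, 3 calls became 5 by edgeR with TMM and 2 to 5 without each library. The replicate block gave 3 calls there, with AT2G07739 lost (adjusted p 0.0652) and AT2G07698 gained (0.0273), and 1045 genes called over all, and the samples share only a number. For total against poly(A) RNA, 24 calls became 15 with 4 times the pseudocount, 0 by edgeR (both settings) and DESeq2, 10 at a mean of 10 or more CPM, and 5 to 7 without each library. For the tagged share, 4 calls became 0 at a mean of 100 or more CPM, where no insertion gene was left, and 3 to 5 without each library, and the count was 4 (2 higher and 2 lower of 7 tested) with genes chosen by their unenriched level. The replicate block changed no other call of the genes followed.

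The mean tagged share of 40.0% became 44.4% without AT2G07671, 31.7% without AT2G07774, 43.3% by position and 17.0% with the mitochondrion-encoded genes added. It was 39.1% to 41.4% without each library. The pooled level of 195 CPM in enriched RNA with ADPRC became 645 CPM with the mitochondrion-encoded genes, and 138 to 225 CPM without each library. That of 379 CPM in unenriched RNA became 254 CPM without AT2G07671 and 1286 CPM with the mitochondrion-encoded genes, and 351 to 396 CPM without each library.

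Signs that turned were as follows, on the log2 scale, and apart from centring the cause was not tested. Among all reads with and without ADPRC, AT2G07777 (-0.12) was at 0.15 and 0.22 by edgeR with library totals and TMM and from -0.81 to 0.35 without each library, and AT2G07718 (0.17) from -0.13 to 0.72. For tagged reads with and without ADPRC, AT2G07718 was at -0.79 by edgeR with TMM, -3.39 by DESeq2 and -4.29 centred. AT2G07774 was at -0.71 by DESeq2 and -1.85 centred, AT2G07695 at -3.01 and AT2G07719 at -3.59 centred. For tagged reads of enriched against unenriched RNA, AT2G07718 was at -0.59, -1.96 and -2.55 by the same 3 settings, and AT2G07774 at -0.26 centred. AT2G07695 was at -0.15 by DESeq2 and -1.52 centred, and AT2G07719 at -0.89 and -2.07. Among all reads of enriched against unenriched RNA, AT2G07774 lay between -0.10 and 0.66 and AT2G07695 between -0.033 and 1.12 without each library.

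Counts over all genes moved by more than 1.5 times in several settings. With and without ADPRC, the 22 calls ranged from 0 to 213, the highest with the replicate block. Enriched against unenriched RNA gave 932 calls, with 329 to 1599 in the alternatives. For tagged reads, 7384 and 7297 calls became 354 and 0 by DESeq2 and 539 and 127 by edgeR with TMM. Depth limits single genes most: 38 of the 62 had fewer than 10 reads, and 3 reads were worth 2.43 to 7.93 CPM in the poly(A) libraries.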
